A study of Homo sapiens with 12 samples.

Results

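The aryl hydrocarbon receptor (AhR) and its target genes were followed on one-colour arrays of cells exposed to 3 hepatoprotective agents. The cells were labelled HepG2, a human liver tumour line. The genes were chosen by name, with earlier results of these data known: AHR itself and the targets CYP1A2, CYP1B1 and ALDH3A1. All 4 were present, each with 1 probe, so the set holds 4 of the 13881 genes and 4 of the 27561 probes on the array. The groups were 25 µM glycyrrhizin (a triterpenoid saponin of liquorice root), 25 µM silymarin (flavonolignans extracted from milk thistle seed), 25 µM ursodeoxycholic acid (a hydrophilic bile acid) and mock-treated control, with 3 arrays each. All groups were grown in DMEM with fetal bovine serum. The sources used here do not give the treatment time. The labels do not state whether a group's 3 arrays are independent cultures. Each p-value therefore sets a difference against array-to-array spread, part or all of which may be technical.

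AhR is a ligand-activated transcription factor of the bHLH-PAS family that waits in the cytoplasm bound to chaperones. Ligands include dioxins, polycyclic aromatic hydrocarbons, tryptophan metabolites and some plant flavonoids. The bound receptor enters the nucleus, pairs with ARNT and binds response elements with the core GCGTG. In liver the pathway is best known for inducing the CYP1 cytochromes, which oxidise planar aromatic compounds, together with conjugating and aldehyde-oxidising enzymes.

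The start regions of the receptor gene and of CYP1A2 are shown because the promoter set used here held these 2 of the 4 genes. The 250 bases before each start come from RefSeq (GRCh38.p14). The AHR stretch is chr7:17298402-17298651 and the CYP1A2 stretch chr15:74748595-74748844, both on the plus strand. Capitals mark GGGCGG, the core motif of Sp1 sites, and TATAAA, the motif bound by TBP, on either strand; in CYP1A2 the TATAAA matches of the 2 strands overlap, and in AHR a pair of GGGCGG matches share a base.
AHR: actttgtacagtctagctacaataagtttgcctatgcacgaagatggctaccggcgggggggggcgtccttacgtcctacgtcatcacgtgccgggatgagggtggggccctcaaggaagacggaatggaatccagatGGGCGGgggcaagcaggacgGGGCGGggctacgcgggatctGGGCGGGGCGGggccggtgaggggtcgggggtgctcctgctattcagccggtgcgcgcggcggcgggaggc
CYP1A2: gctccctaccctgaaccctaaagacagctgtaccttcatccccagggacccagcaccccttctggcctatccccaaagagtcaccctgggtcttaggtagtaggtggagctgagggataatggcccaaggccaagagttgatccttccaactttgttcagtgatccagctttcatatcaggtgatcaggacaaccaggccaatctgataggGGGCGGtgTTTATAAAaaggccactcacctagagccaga
The AHR stretch held 4 matches to GGGCGG and 0 to TATAAA, and 66.8% of its bases were G or C. The CYP1A2 stretch held 1 match to GGGCGG and 2 to TATAAA, the plus-strand one starting 29 bases before the start, with 52.8% G or C. Over 35116 promoter stretches of the same length, 42.6% held GGGCGG on either strand, 10.7% TATAAA and 32.2% the AhR core GCGTG. Neither stretch held GCGTG on either strand, which says only that these letters are not in this window.

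The labelled cell type was set against marker genes. Each gene was placed by the percentile of its mean log2 intensity among the 13881 genes, a rank of probe brightness and not of transcript number. The 12 measured hepatocyte genes had a median percentile of 50.9, with APOB at 81.9 the brightest, TTR at 68.5, AFP at 53.4 and APOH at 0.54 the dimmest. The 8 measured neuroblast and sympathetic neuron genes had a median of 81.6, with tyrosine hydroxylase (TH) at 97 the brightest, CHGA at 54.2 and CHGB at 31. The 12 mesenchymal genes had a median of 58.2, with vimentin (VIM) at 99.7 the brightest, N-cadherin (CDH2) at 99.4, COL3A1 at 39.4 and LOX at 24.7. The median was 25.3 over 4 epithelial genes, 25.7 over 4 leukocyte genes and 70.5 over 5 endothelial genes. As a list the hepatocyte genes thus lay at the middle of the array, below the neuroblast genes, and the name HepG2 is used here as the label only. Summed over the hepatocyte list, intensity was between 1539 and 1737 with glycyrrhizin, 1544 and 1831 with silymarin, 1566 and 2103 with ursodeoxycholic acid, and 1720 and 1843 in control. The mesenchymal sum was between 77148 and 91177 with glycyrrhizin, 66635 and 72292 with silymarin, 80751 and 84020 with ursodeoxycholic acid, and 73983 and 91714 in control. The neuroblast sum was between 10209 and 13456 with glycyrrhizin, 8174 and 9367 with silymarin, 9194 and 13943 with ursodeoxycholic acid, and 9184 and 10720 in control. The mesenchymal sum, carried mostly by VIM and CDH2, was lower on all 3 silymarin arrays than on any other array. The neuroblast sum with silymarin overlapped control and ursodeoxycholic acid, and lay below all glycyrrhizin arrays. Of single genes, 10.8% did not overlap for silymarin against control, 18.2% for glycyrrhizin against silymarin and 14.7% for silymarin against ursodeoxycholic acid. The part of these markers in the results below was not tested. In bulk samples, fewer cells of a type and less RNA per cell cannot be told apart.

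The deposited values were intensities already brought to 1 common distribution. They were compared as log2 intensity in a limma fit over all 13881 genes, each gene read from its brightest probe, with Benjamini-Hochberg adjustment over all genes and a threshold of 0.05. Differences are on the log2 scale with the standard error (SE). Because the array number per group is 3, precision is limited by the arrays and not by counting. The 4 genes gave 24 tests in 6 comparisons, of which 1 passed. The comparisons with control share the control arrays.

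**Figure D1:**
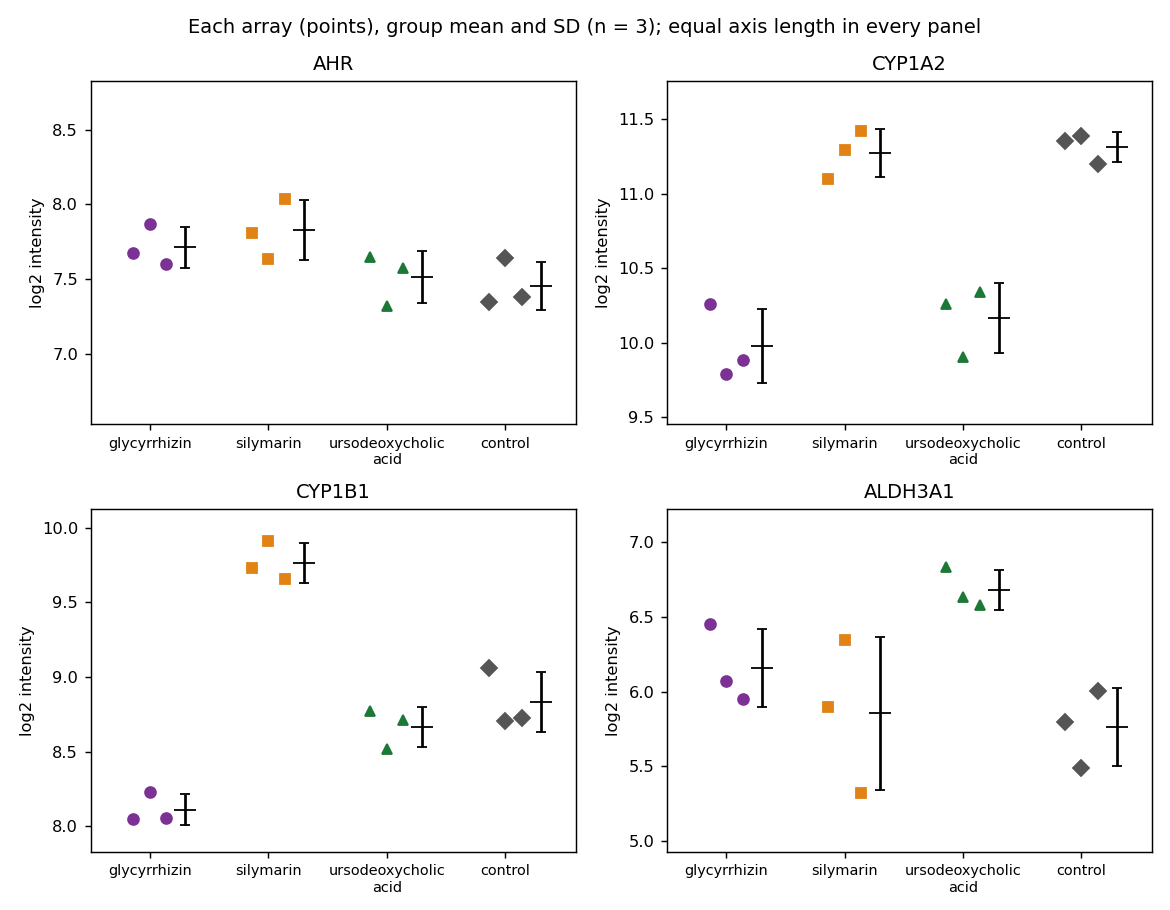
log2 intensity of AHR, CYP1A2, CYP1B1 and ALDH3A1 on each of the 12 arrays, by group, with the group mean and SD (n = 3) as a bar beside the points; all panels span the same number of log2 units. CYP1A2 sits below every control array with glycyrrhizin and with ursodeoxycholic acid, and CYP1B1 lies lowest with glycyrrhizin and highest with silymarin.

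The receptor gene AHR was measured within a narrow range on all arrays. Its intensity was 204.1, 233.2 and 194.1 with glycyrrhizin, 224.3, 198.9 and 262.4 with silymarin, 200.4, 159.7 and 190.9 with ursodeoxycholic acid, and 163, 199.3 and 166.2 in control. Each treated group overlapped control, and the 12 values spanned 0.72 log2 units. The mean log2 intensity was 7.71 ± 0.14 with glycyrrhizin, 7.83 ± 0.20 with silymarin, 7.51 ± 0.17 with ursodeoxycholic acid and 7.45 ± 0.16 in control (SD, n = 3 each). The order was therefore silymarin, glycyrrhizin, ursodeoxycholic acid and control, and the arrays of each pair of neighbours in it overlapped.

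In limma AHR differed from control by 0.37 with silymarin (SE 0.19, 95% interval −0.05 to 0.79, adjusted p = 0.932). With glycyrrhizin the difference was 0.26 (interval −0.16 to 0.68, adjusted p = 0.942) and with ursodeoxycholic acid 0.06 (interval −0.36 to 0.48, adjusted p = 0.968). Between the agents AHR differed by −0.11 for glycyrrhizin minus silymarin, 0.20 for glycyrrhizin minus ursodeoxycholic acid and 0.31 for silymarin minus ursodeoxycholic acid, with adjusted p-values of 0.917, 0.885 and 0.643. The intervals against control leave room for a receptor transcript up to 0.79 log2 units higher with silymarin.

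CYP1A2, a cytochrome of liver that oxidises caffeine and aromatic amines, was measured over 2-fold below control with 2 of the agents. Its intensity was 1224, 884.5 and 946 with glycyrrhizin, 2192, 2513 and 2741 with silymarin, 1228, 956.7 and 1295 with ursodeoxycholic acid, and 2610, 2675 and 2354 in control. The glycyrrhizin and ursodeoxycholic acid arrays all lay below all control and all silymarin arrays, while silymarin and control overlapped. The mean log2 intensity was 9.98 ± 0.25 with glycyrrhizin, 11.27 ± 0.16 with silymarin, 10.17 ± 0.23 with ursodeoxycholic acid and 11.31 ± 0.10 in control (SD, n = 3 each).

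Against control, CYP1A2 was 2.52-fold lower with glycyrrhizin (log2 difference −1.33, SE 0.20, interval −1.78 to −0.89). Its adjusted p in limma was 0.129, so it did not pass, although its p was the 4th smallest of all genes in this comparison. With ursodeoxycholic acid it was 2.21-fold lower (−1.14, SE 0.20, adjusted p = 0.179). Silymarin differed from control by −0.04, and the interval of −0.48 to 0.40 leaves room for a change of that size either way.

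Between the agents, CYP1A2 was 2.45-fold lower with glycyrrhizin than with silymarin (−1.29, SE 0.20, adjusted p = 0.0585 in limma). It was 2.15-fold higher with silymarin than with ursodeoxycholic acid (1.10, SE 0.20, adjusted p = 0.196). Glycyrrhizin and ursodeoxycholic acid overlapped and differed by −0.19 (interval −0.63 to 0.25). In descending order the levels were control, silymarin, ursodeoxycholic acid and glycyrrhizin: the first pair and the last pair were not separated by more than their spread, and the gap lay between silymarin and ursodeoxycholic acid.

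The call for CYP1A2 changed under several settings. With any 1 array left out the gene passed in no comparison (adjusted p of 0.0775 or more in limma). With a variance trend and robust estimation it passed in 4 comparisons: glycyrrhizin against control (adjusted p = 0.0049) and against silymarin (0.00177), ursodeoxycholic acid against control (0.0176), and silymarin against ursodeoxycholic acid (0.0171). CYP1A2 rests on 1 probe, whose mean brightness lay at percentile 92.7. That is above all 12 hepatocyte markers measured, of which APOB, at 81.9, was the brightest. Whether that probe reads the CYP1A2 transcript alone was not tested.

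CYP1B1, a cytochrome found mainly outside the liver that hydroxylates estradiol and activates polycyclic hydrocarbons, differed among the agents and gave the 1 test that passed. Its intensity was 264.2, 300.6 and 266.2 with glycyrrhizin, 848.3, 963.2 and 806.2 with silymarin, 436.8, 366.4 and 418.6 with ursodeoxycholic acid, and 534.9, 417.7 and 424.1 in control. All glycyrrhizin arrays lay below, and all silymarin arrays above, every array of the other groups. Ursodeoxycholic acid and control overlapped. The mean log2 intensity was 8.11 ± 0.10 with glycyrrhizin, 9.77 ± 0.13 with silymarin, 8.67 ± 0.13 with ursodeoxycholic acid and 8.83 ± 0.20 in control (SD, n = 3 each).

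CYP1B1 was 3.15-fold lower with glycyrrhizin than with silymarin (log2 difference −1.65, SE 0.18, interval −2.05 to −1.26, adjusted p = 0.00966 in limma), lower on 3 of 3 arrays. In this comparison 0.0504% of all genes passed, 7 of 13881, of which 1 was among the 4 genes. The call did not survive the loss of any 1 of the 6 arrays compared: without each in turn the difference lay between −1.71 and −1.58, while the adjusted p rose to between 0.0503 (without silymarin replicate 3) and 0.0924 (without glycyrrhizin replicate 3). It was also lost with only these 2 groups in the fit (adjusted p = 0.364 in limma).

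The opposite positions against control did not pass. CYP1B1 was 1.65-fold lower with glycyrrhizin than in control (−0.72, SE 0.18, adjusted p = 0.574 in limma). With silymarin it was 1.91-fold higher than in control (0.93, SE 0.18, adjusted p = 0.357). Ursodeoxycholic acid differed from control by −0.17 (interval −0.56 to 0.23). Silymarin minus ursodeoxycholic acid was 1.10 (SE 0.18, adjusted p = 0.13) and glycyrrhizin minus ursodeoxycholic acid −0.55 (SE 0.18, adjusted p = 0.854). The order was silymarin, control, ursodeoxycholic acid and glycyrrhizin. Of its neighbours, control and ursodeoxycholic acid were the pair not separated by more than their spread.

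ALDH3A1, a dehydrogenase of aromatic and medium-chain aldehydes that dioxin induces in rat liver, was the dimmest of the 4 probes, at percentile 39.1. Its intensity was 87.4, 67.3 and 61.9 with glycyrrhizin, 59.5, 81.2 and 39.9 with silymarin, 114, 99.3 and 95.5 with ursodeoxycholic acid, and 55.6, 44.8 and 64.2 in control. The ursodeoxycholic acid arrays all lay above every other array, and the other 3 groups overlapped. The mean log2 intensity was 6.16 ± 0.26 with glycyrrhizin, 5.85 ± 0.51 with silymarin, 6.68 ± 0.13 with ursodeoxycholic acid and 5.76 ± 0.26 in control (SD, n = 3 each).

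ALDH3A1 was 1.89-fold higher with ursodeoxycholic acid than in control (0.92, SE 0.27, interval 0.32 to 1.52), with an adjusted p in limma of 0.725. Glycyrrhizin differed from control by 0.40 (SE 0.27) and silymarin by 0.09 (interval −0.51 to 0.69). Silymarin minus ursodeoxycholic acid was −0.83 (SE 0.27, adjusted p = 0.498), glycyrrhizin minus ursodeoxycholic acid −0.52 (adjusted p = 0.854) and glycyrrhizin minus silymarin 0.31 (adjusted p = 0.799). The order was ursodeoxycholic acid, glycyrrhizin, silymarin and control, and the first step alone separated neighbours.

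**Figure D2:**
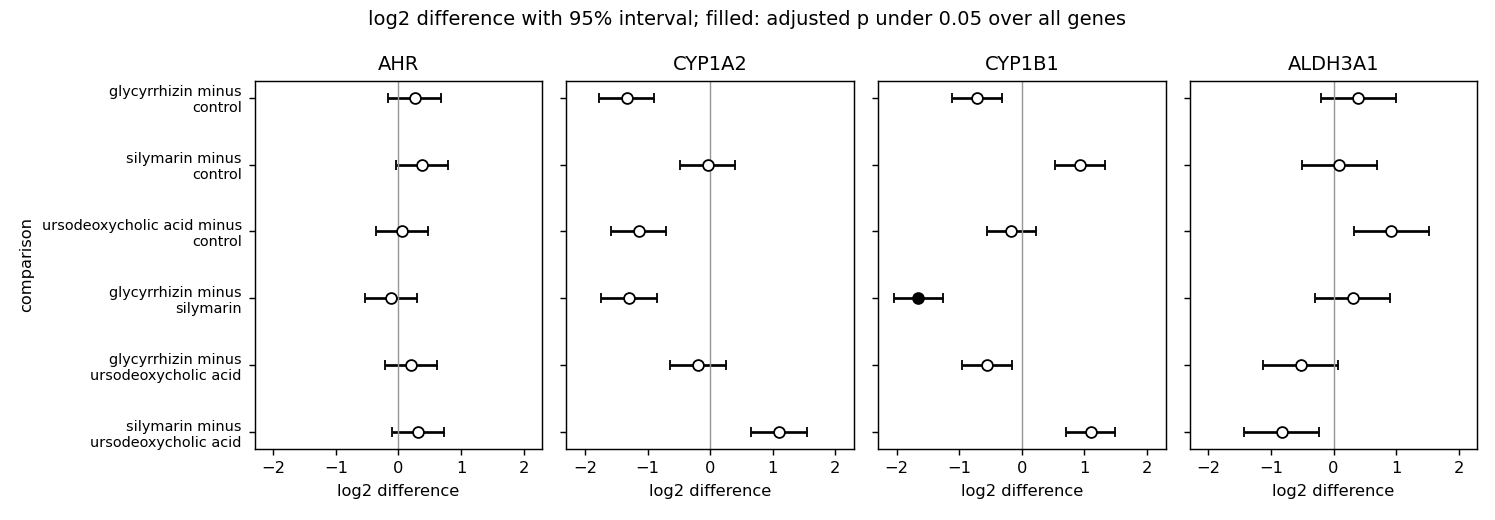
log2 differences of the 4 genes in 6 comparisons, with 95% intervals from limma; a filled point has an adjusted p under 0.05 over all genes. The 1 filled point is CYP1B1 for glycyrrhizin minus silymarin, at −1.65; the intervals of AHR include 0 in all 6 comparisons.

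Groups that do not overlap were read against all genes. With glycyrrhizin against control 2 of the 4 genes did not overlap, CYP1A2 and CYP1B1, both lower, against 12.7% of all genes in either direction. With silymarin against control 1 of the 4 was free of overlap, CYP1B1, which was higher, against 10.8% of all genes. With ursodeoxycholic acid against control 2 were, CYP1A2 lower and ALDH3A1 higher, against 9.5%. Between agents the counts without overlap were 2 of 4 for glycyrrhizin against silymarin (18.2% of all genes), 2 for glycyrrhizin against ursodeoxycholic acid (11.6%) and 3 for silymarin against ursodeoxycholic acid (14.7%). With 4 genes, chosen with earlier results of these data known, these counts and those in the next paragraph carry little weight.

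At an adjusted p under 0.05, limma called 0.0072% of all genes for glycyrrhizin against control, 0.0504% for silymarin against ursodeoxycholic acid and 0% in the other 3 comparisons besides glycyrrhizin against silymarin. None of the 4 genes was among those calls. At an unadjusted p under 0.05 the 4 genes numbered 2, 1 and 2 for glycyrrhizin, silymarin and ursodeoxycholic acid against control, where the shares of all genes were 5.71%, 5.24% and 5.55%. They numbered 2 for glycyrrhizin against silymarin (9.86% of all genes), 1 for glycyrrhizin against ursodeoxycholic acid (5.09%) and 3 for silymarin against ursodeoxycholic acid (8.52%). In the 3 comparisons with 0 calls by limma, 728 genes (silymarin against control), 770 (ursodeoxycholic acid against control) and 706 (glycyrrhizin against ursodeoxycholic acid) had an unadjusted p under 0.05.

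The 4 genes did not share 1 order of groups. For CYP1B1 96.1% of the variance over the 12 arrays lay between groups, for CYP1A2 93.7%, for ALDH3A1 65% and for AHR 54.1%. The median over all genes was 27.6%, and CYP1B1 ranked 6th and CYP1A2 14th of 13881. These ranks are a description, because the 4 genes were chosen with earlier results of these data known. Glycyrrhizin arrays were low in both cytochromes, whereas ursodeoxycholic acid arrays were low in CYP1A2 and near control in CYP1B1, and silymarin arrays were near control in CYP1A2 and high in CYP1B1.

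**Figure D3:**
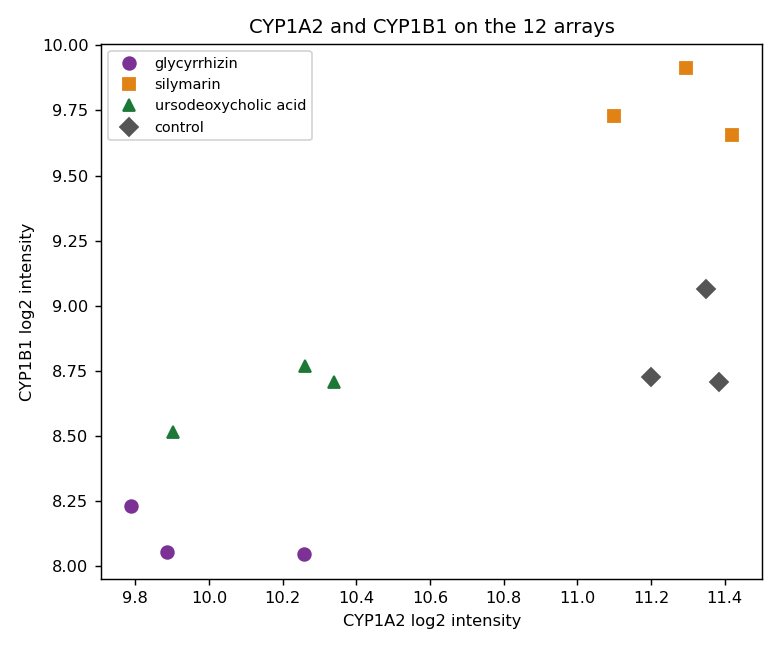
CYP1B1 against CYP1A2 on each of the 12 arrays, both as log2 intensity, with 1 symbol per group. The groups form 4 separate clusters: the CYP1A2 axis splits glycyrrhizin and ursodeoxycholic acid from silymarin and control, and the CYP1B1 axis splits glycyrrhizin, at the bottom, from silymarin, at the top.

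Genes with like profiles were sought among 6941 genes at or above the median brightness, by Pearson r over the 12 arrays, given as a description. The genes most like CYP1A2 were MIEN1 (r = 0.98), CLCN2 (0.98), OAF (0.93), HIPK3 (0.91) and MAP4K4 (0.91). Within groups, after each group's mean was removed, r was 0.74 for MIEN1 and 0.76 for CLCN2. For OAF, HIPK3 and MAP4K4 it was 0.18, 0.30 and 0.31. The most opposite were EIPR1 (−0.90), the interferon regulatory factor IRF1 (−0.90) and H1-10-AS1 (−0.89), with r within groups of −0.07, −0.54 and −0.25. MIEN1 averaged 10.48 with glycyrrhizin, 12.08 with silymarin, 10.73 with ursodeoxycholic acid and 12.03 in control, with the same 2 groups low as CYP1A2. For glycyrrhizin minus silymarin MIEN1 (−1.60), CLCN2 (−1.41) and HIPK3 (−1.96) passed in limma, with adjusted p of 0.00966, 0.0187 and 0.0254. With only these 2 groups in the fit, or without any 1 of their 6 arrays, these 3 calls were lost.

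The genes most like CYP1B1 were TTC1 (r = 0.94), PIP4P1 (0.94), AFTPH (0.94), RAB5IF (0.94) and WAC (0.93). For glycyrrhizin minus silymarin they differed by −0.84, −1.49, −1.52, −1.35 and −1.23 in log2, and none passed over all genes (adjusted p from 0.0548 to 0.161 in limma). The most opposite were JTB (−0.96), PCLAF (−0.96) and CDCA3 (−0.95), with r within groups of −0.72, −0.15 and −0.42. For the genes most like CYP1B1, r within groups ran from 0.50 (RAB5IF) to 0.80 (WAC). AHR was most like DUSP15 (0.84) and TBC1D22B (0.82) and most opposite to EMILIN1 (−0.88), and ALDH3A1 was most like gelsolin GSN (0.87) and ILF2 (0.86). Such r values are the extremes of 6941 per gene, over arrays that share 4 group means.

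The receptor's partners did not pass in any comparison. Of 6 listed genes 3 were measured: ARNT, the nuclear partner, ARNT2, its neural relative, and PTGES3, the p23 co-chaperone. ARNT averaged 9.81 ± 0.13 with glycyrrhizin, 9.56 ± 0.25 with silymarin, 9.32 ± 0.62 with ursodeoxycholic acid and 9.58 ± 0.02 in control. PTGES3 averaged 14.15 ± 0.07, 14.61 ± 0.04, 14.30 ± 0.06 and 14.17 ± 0.30 in the same groups. Its silymarin arrays lay above all others, by 0.45 against control (adjusted p = 0.931) and, for glycyrrhizin minus silymarin, −0.47 (adjusted p = 0.42). Over all genes 10.8%, 18.2% and 14.7% did not overlap between silymarin and, in turn, control, glycyrrhizin and ursodeoxycholic acid. The list's median difference from control was 0.05 with glycyrrhizin, 0.19 with silymarin and 0.00 with ursodeoxycholic acid, beside 0.02 over all genes in each.

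Further AhR targets showed no called difference either. Of 13 listed genes 6 were measured, and CYP1A1 and AHRR were not analysed here. With glycyrrhizin 4 lay above control and 2 below, with silymarin 3 and 3, and with ursodeoxycholic acid 4 and 2. The medians were 0.20, 0.02 and 0.23, beside 0.02 over all genes. TIPARP, which ADP-ribosylates and restrains the receptor, differed from control by −0.41 with glycyrrhizin, −0.19 with silymarin and −0.66 with ursodeoxycholic acid. The quinone reductase NQO1, at percentile 22.1, differed by −0.17, 0.41 and 0.18.

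The largest difference among these targets belonged to the serpin SERPINB2 (plasminogen activator inhibitor 2), another dim probe, at percentile 27.9. It averaged 5.29 ± 0.24 with glycyrrhizin, 4.48 ± 1.29 with silymarin, 7.15 ± 0.18 with ursodeoxycholic acid and 5.07 ± 0.25 in control. All ursodeoxycholic acid arrays lay above all control arrays, by 2.08 (SE 0.50, adjusted p = 0.532 in limma). There 9.5% of all genes did not overlap. Silymarin minus ursodeoxycholic acid was −2.67 (adjusted p = 0.201) and glycyrrhizin minus ursodeoxycholic acid −1.86 (adjusted p = 0.854). Like ALDH3A1, it was highest with ursodeoxycholic acid. The cytochrome CYP2S1 was higher by 0.69 with glycyrrhizin than with ursodeoxycholic acid (adjusted p = 0.854). Xanthine dehydrogenase (XDH) differed from control by 0.33, 0.24 and 0.28 with the 3 agents.

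Of 13 other bHLH-PAS genes measured, 0 passed. The clock factor BMAL1 averaged 11.31 ± 0.33 with glycyrrhizin, 11.97 ± 0.07 with silymarin, 11.71 ± 0.09 with ursodeoxycholic acid and 11.41 ± 0.19 in control. Its silymarin arrays lay above all control arrays (0.56, adjusted p = 0.87 in limma) and all glycyrrhizin arrays. In these comparisons 10.8% and 18.2% of all genes did not overlap. The hypoxia factor HIF1A, which also pairs with ARNT, differed from control by 0.49 with silymarin (adjusted p = 0.931) and 0.06 with glycyrrhizin. CLOCK, at percentile 6.82, differed from control by −0.91 with glycyrrhizin, −1.16 with silymarin and −1.27 with ursodeoxycholic acid. NPAS1 differed by −1.28, −1.43 and −1.48 with the same agents, beside an SD of 1.83 over the control arrays. None of these passed.

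Among 11 measured coregulators 9 lay below control with glycyrrhizin (median −0.17), against 3 with silymarin (median 0.07) and 3 with ursodeoxycholic acid (median 0.09), and 0 passed. With glycyrrhizin 0 of them had an unadjusted p under 0.05 in limma. Of all genes 52.5% lay above control with glycyrrhizin and 52.3% with each of the other agents, with a median of 0.02 for each agent. The acetyltransferase EP300 averaged 8.67 ± 0.19 with glycyrrhizin and 9.30 ± 0.33 with silymarin, without overlap (−0.63, adjusted p = 0.423 in limma). Between these groups 18.2% of all genes did not overlap. The coactivator NCOA7 differed from control by −0.66 with silymarin (adjusted p = 0.931), and NCOA3 by −0.74 with glycyrrhizin (adjusted p = 0.919). NRIP1, a corepressor, differed by −0.31 for glycyrrhizin minus silymarin.

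The list of electron donors held 4 measured genes, of which the haem oxygenase HMOX1 takes electrons from POR and donates none to cytochromes. POR, the reductase that supplies CYP1 enzymes with electrons, averaged 9.26 ± 0.24 with glycyrrhizin, 8.99 ± 0.20 with silymarin, 9.14 ± 0.11 with ursodeoxycholic acid and 8.86 ± 0.10 in control. Glycyrrhizin and ursodeoxycholic acid arrays lay above all control arrays, by 0.40 and 0.28 (adjusted p = 0.88 and 0.895 in limma). In these comparisons 12.7% and 9.5% of all genes did not overlap. HMOX1 was 0.87 higher with silymarin than with ursodeoxycholic acid (adjusted p = 0.545).

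Of 15 other aldehyde dehydrogenases 0 passed, and their medians against control were 0.03, −0.01 and −0.02 for glycyrrhizin, silymarin and ursodeoxycholic acid. ALDH7A1, the dehydrogenase of lysine breakdown, averaged 3.74 ± 0.71 with glycyrrhizin, 5.92 ± 0.81 with silymarin, 5.00 ± 0.51 with ursodeoxycholic acid and 6.65 ± 0.66 in control, at low intensity. Glycyrrhizin minus control was −2.92 (SE 0.50, adjusted p = 0.204 in limma). The retinal dehydrogenase ALDH1A1 differed by −0.90 for silymarin minus ursodeoxycholic acid (adjusted p = 0.461), and ALDH8A1, at percentile 0.122, by −2.55 for ursodeoxycholic acid minus control (adjusted p = 0.532).

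Targets of NRF2, a factor that shares NQO1 with AhR, had medians of 0.03, 0.08 and 0.18 against control over 11 measured genes, with 0 past the threshold. Malic enzyme ME1 averaged 10.15 ± 0.03 with glycyrrhizin, 11.01 ± 0.12 with silymarin, 10.61 ± 0.17 with ursodeoxycholic acid and 10.69 ± 0.40 in control. Its glycyrrhizin arrays lay below all silymarin arrays (−0.86, adjusted p = 0.182 in limma), a comparison in which 18.2% of all genes did not overlap. Of 8 other xenobiotic cytochromes 7 lay below control with ursodeoxycholic acid (median −0.17) and 3 each with glycyrrhizin and silymarin (medians 0.09 and 0.05). Of all genes 52.3% lay above control with ursodeoxycholic acid, and 0 of the 8 had an unadjusted p under 0.05 there in limma. CYP3A5 and CYP2C8 differed from control by −1.07 and −0.87 with ursodeoxycholic acid (adjusted p = 0.893 and 0.895), with SDs of 1.06 and 1.02 over its 3 arrays.

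**Figure D4:**
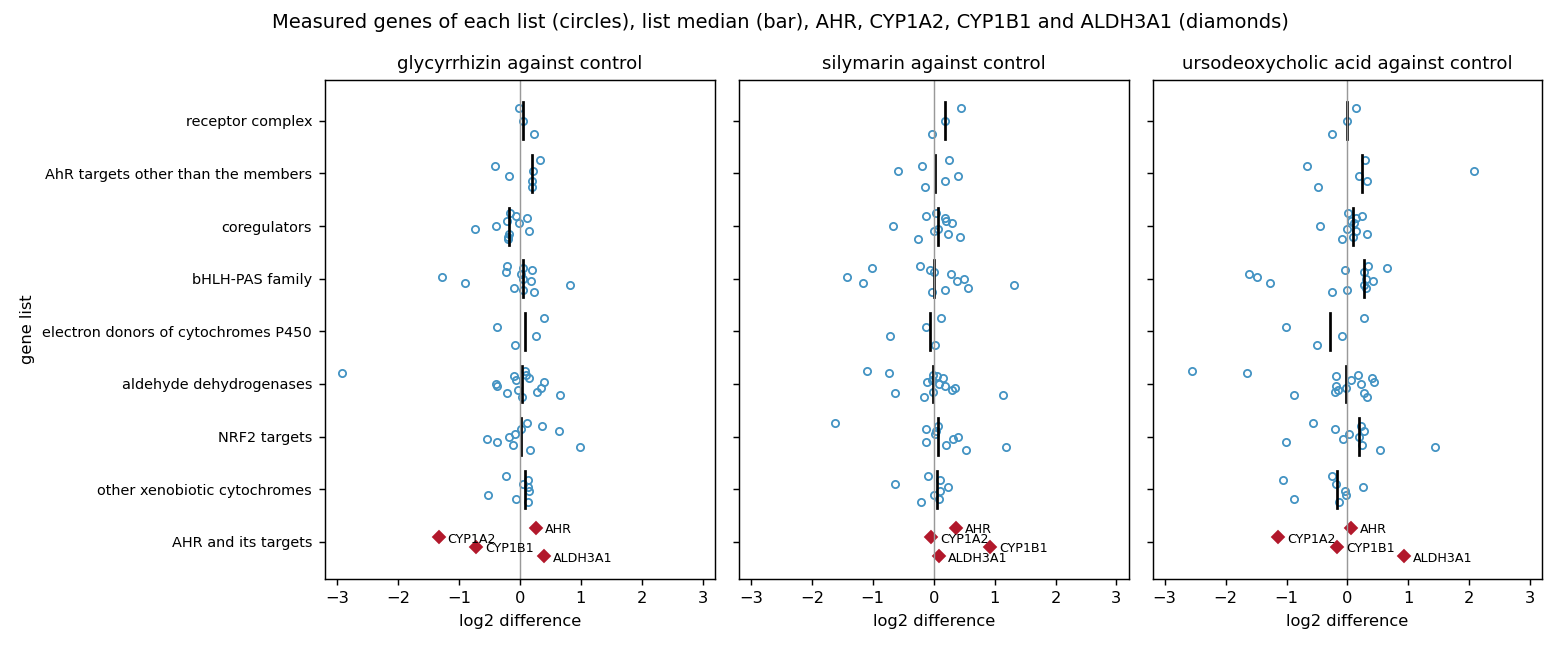
log2 difference from control of each measured gene in 8 lists around the AhR pathway, with the list median as a bar and AHR, CYP1A2, CYP1B1 and ALDH3A1 as diamonds below, for the 3 agents. List medians lie between −0.29 and 0.27 for every agent. Single list genes range from −2.92 to 0.98 with glycyrrhizin and from −2.55 to 2.08 with ursodeoxycholic acid. The lower ends belong to dim probes, ALDH7A1 (percentile 24.6, SE 0.50) with glycyrrhizin and ALDH8A1 (percentile 0.122, SE 0.61) with ursodeoxycholic acid. CYP1A2 (percentile 92.7, SE 0.20) lies within these ranges, at −1.33 with glycyrrhizin and −1.14 with ursodeoxycholic acid. The ranges take no account of this unlike precision.

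Over the 67 measured genes of these lists, 0 passed in any of the 6 comparisons by limma with adjustment over all genes. At an unadjusted p under 0.05 there were 2 with glycyrrhizin, 5 with silymarin and 6 with ursodeoxycholic acid against control, which is 2.99%, 7.46% and 8.96% of them, beside 5.71%, 5.24% and 5.55% of all genes. Between agents there were 6 for glycyrrhizin against silymarin (8.96%, beside 9.86% of all genes), 8 for glycyrrhizin against ursodeoxycholic acid (11.9%, beside 5.09%) and 9 for silymarin against ursodeoxycholic acid (13.4%, beside 8.52%).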

How the data were processed

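Total RNA of 12 samples was amplified, labelled with Cy5 and read on one-colour arrays, per the labels' protocols. Linear probe intensities, 1 value for each array, are what the authors deposited. The submitters' processing notes name limma; which of its steps were run, and any background correction, is not stated there. Across the 12 arrays, deposited intensities of equal rank differed by a median of 1.22%, and array medians ran from 85.8 to 86.6, so the values had been brought to 1 distribution. No detection call accompanied them.

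Of 27561 probes 15650 had 1 gene symbol in the platform annotation, 0 several and 11911 none. Older symbols were updated for 2355 probes from the RefSeq table (GRCh38.p14), which gave 13881 genes, each read from its brightest probe. The log2 of each intensity entered a linear model with 1 mean per group (limma 3.58.1 under R 4.3.3; 8 residual and 2.71 prior degrees of freedom after eBayes), two-sided, with Benjamini-Hochberg adjustment over 13881 genes and a threshold of 0.05. Arrays of one group correlated at a median r of 0.945, as did arrays of different groups (0.946). The fit was tested on simulated arrays. Alternatives were the replicate number as a block, repeated quantile normalization, the dimmer 50% of genes left out, probes of a gene averaged, a robust variance trend, array weights, only the groups compared, offsets of 16 and 50 before the log, all probes in 1 fit, and each array left out in turn.

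The 4 genes, the lists around them and the tests were chosen with earlier results of these data known. Besides the 4 genes, the rule named from each list the 2 genes with the smallest p in a comparison and the defining members of the pathway, and for each of the 4 genes the 5 with the most and the 3 with the least like profile. Not all of these are printed.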

Additional observations from a re-analysis of the deposited data

How the results depend on the processing

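The sign of the difference held in the 4 genes under nearly all settings. It turned for 3 differences close to 0: AHR with ursodeoxycholic acid against control (−0.037 with array weights, −0.0069 without ursodeoxycholic acid replicate 1), CYP1A2 with silymarin against control (0.046 without silymarin replicate 1; −0.12 to 0.05 over single arrays left out) and ALDH3A1 with silymarin against control (−0.05 without control replicate 2, −0.15 without silymarin replicate 2; −0.15 to 0.36 over single arrays left out). Over single arrays left out, AHR with ursodeoxycholic acid ran from −0.01 to 0.16.

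CYP1B1 for glycyrrhizin minus silymarin stayed at −1.65 but lost its call with the replicate block (adjusted p = 0.0738) and with only the 6 arrays compared (0.364). With single arrays left out it ran from −1.71 to −1.58, with adjusted p of 0.0589, 0.0675 and 0.0924 without glycyrrhizin replicates 1, 2 and 3 and 0.0582, 0.0588 and 0.0503 without silymarin replicates 1, 2 and 3; fewer samples were then compared. Without a control or ursodeoxycholic acid array it kept its call.

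CYP1A2 passed in several settings and missed the threshold in others. It passed in no comparison with any 1 array left out. Over the other settings its adjusted p in limma reached 0.731 for glycyrrhizin against control and 0.364 against silymarin. It reached 0.934 for ursodeoxycholic acid against control and 0.678 for silymarin against ursodeoxycholic acid. With the dimmer 50% of genes left out CYP1A2 passed at −1.33 for glycyrrhizin against control (adjusted p = 0.0238) and at −1.29 against silymarin (0.00913). With the variance trend it passed in those and at −1.14 for ursodeoxycholic acid against control and 1.10 for silymarin against ursodeoxycholic acid. An offset of 50 gave −1.29, −1.25, −1.11 and 1.07 for the same 4, all past the threshold, an offset of 16 gave −1.28 and array weights −1.23 for glycyrrhizin against silymarin. CYP1B1 for silymarin minus ursodeoxycholic acid passed at 1.10 with the dim genes left out and with the variance trend, and at 1.01 with an offset of 50. The cause was not tested. ALDH3A1 has no value where dim genes were left out.

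Counts of genes called over the array moved widely. For glycyrrhizin against control, with 1 called, they were 0 with the block, with only the 2 groups, and with all probes in 1 fit (also when adjusted over genes), 7 with dim genes left out and with an offset of 50, 17 with the trend, 3 with weights and 2 with an offset of 16. For silymarin against control, with 0, they were 2, 4, 1, 1 and 2 with dim genes left out, trend, weights and offsets of 16 and 50, and for ursodeoxycholic acid against control, with 0, 3, 6, 4, 3 and 6. For glycyrrhizin against silymarin, with 7, they were 0 with the block and with 2 groups, 164 (27 higher, 137 lower) with dim genes left out, 217 (52 and 165) with the trend, 20 with weights, and 19 and 129 with the offsets. For silymarin against ursodeoxycholic acid, with 7, they were 0 with the block, with 2 groups and with all probes, 4 with all probes adjusted over genes and with dim genes left out, 16 with the trend and 3 with an offset of 16. With single arrays left out the counts ran from 0 to 1, 0 to 3 and 0 to 20 for glycyrrhizin, silymarin and ursodeoxycholic acid against control, from 0 to 6 for glycyrrhizin against silymarin, from 0 to 1 for glycyrrhizin against ursodeoxycholic acid and from 0 to 32 for silymarin against ursodeoxycholic acid. The counts of 20 and 32 were without ursodeoxycholic acid replicate 3. Same-numbered arrays of different groups deviated together (r over 0.1) in 4 of 18 pairs, so the replicate number was not read as pairing; the block gave CYP1A2 for glycyrrhizin against control an adjusted p of 0.481, at −1.33. The fit of all probes adjusted over genes was chosen after seeing the data.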
